A study of Mus musculus with 9 samples.

Results

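The nuclear-encoded subunits of respiratory complexes III, IV and V and of cytochrome c were described in the RNA of mouse hearts. Members were all genes whose symbol begins with Uqcr, with Atp5, or with Cox and a digit of 4 to 8, together with Cyc1 and Cycs. The rule found 44 genes among the 16873 genes measured: 9 of complex III, 1 for cytochrome c, 17 of complex IV and 17 of complex V. RNA sequencing of hearts covered 3 groups of 3 libraries each: Sting-/- mice given doxorubicin (Sting-/- DOX), WT mice given doxorubicin (WT DOX) and WT mice given saline (WT saline). Doxorubicin, an anthracycline used against tumours, is toxic to heart muscle, and the series design describes a chronic injury after low doses. STING relays the signal of the cytosolic DNA sensor cGAS to interferon and inflammatory genes. Strain, age, sex, dose and time of sampling are not in the labels used here. A group of Sting-/- mice given saline was not analysed here, so in every difference between Sting-/- and WT hearts the effect of the genotype itself and its effect on the response to the drug cannot be told apart. Sting-/- DOX against WT saline differs in the drug as well.

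Complex III passes electrons from ubiquinol to cytochrome c, a small carrier protein, and complex IV (cytochrome c oxidase) passes them on to oxygen. Both pump protons across the inner mitochondrial membrane, and complex V (ATP synthase) lets the protons flow back through a rotor to make ATP. The beating heart is packed with mitochondria, and in heart and skeletal muscle several small subunits of complex IV are made mainly as muscle isoforms in place of the ubiquitous ones, often called liver isoforms. Part of the catalytic core of complex III, the catalytic core of complex IV and part of the membrane sector of complex V are encoded by mitochondrial DNA. Those genes were not analysed here.

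Levels are in FPKM, which counts fragments per transcript length and per library, so that genes can be compared with each other. The values of all genes summed to 539287 to 543352 FPKM in Sting-/- DOX, 559998 to 570128 in WT DOX and 552456 to 555425 in WT saline. As a check of the labels, Sting1 had 0.0600, 0 and 0 FPKM in the Sting-/- DOX libraries, 17.5, 18.0 and 17.8 in WT DOX and 5.10, 5.43 and 5.93 in WT saline. The labelled tissue was checked with 16 cardiomyocyte markers, among them Myh6, Tnnt2 and Tnni3. They summed to 11532 to 12089 FPKM in Sting-/- DOX, 52646 to 55996 in WT DOX and 80027 to 81369 in WT saline. The mean sum in Sting-/- DOX was 14.7% of that in WT saline, and markers of other cell types differed between the groups as well, as given below. In RNA of bulk tissue, fewer cardiomyocytes and less RNA per cardiomyocyte cannot be told apart. Whether each library is a different animal is not in the labels, and the spread behind every p-value may therefore be technical. Log2 fold changes and their tests are on log2(FPKM + 1), from 1 limma fit over all 9 libraries and the 12485 genes whose mean reached 1 FPKM. Ratios and percentages of means are of plain FPKM. A gene is called at a Benjamini-Hochberg adjusted p below 0.05 over all genes tested.

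In saline hearts these genes were among the most abundant of the heart. Leaving aside Cox4i2, Cox6b2 and Cox7b2, the members stood at or above the 97.9th percentile of all genes in WT saline, and 22 of the 44 reached 1000 FPKM. In WT DOX 21 did so, and in Sting-/- DOX none. Together the members held 2.66, 2.77 and 2.73% of all FPKM in the Sting-/- DOX libraries, 8.05, 7.86 and 7.92% in WT DOX and 10.4, 10.3 and 10.3% in WT saline. The 3 groups did not overlap. Their summed level in Sting-/- DOX was 32.7% of that in WT DOX, and their level in WT DOX was 78.8% of that in WT saline.

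The 3 complexes kept close to one another. As a share of the WT DOX sum, the Sting-/- DOX sum was 32.8% for complex III, 33.9% for complex IV and 32.0% for complex V. As a share of the WT saline sum, the WT DOX sum was 80.7%, 78.9% and 78.2% in the same order. Cytochrome c, a single gene, stood lower in Sting-/- DOX, at 18.9% of WT DOX.

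**Figure D1:**
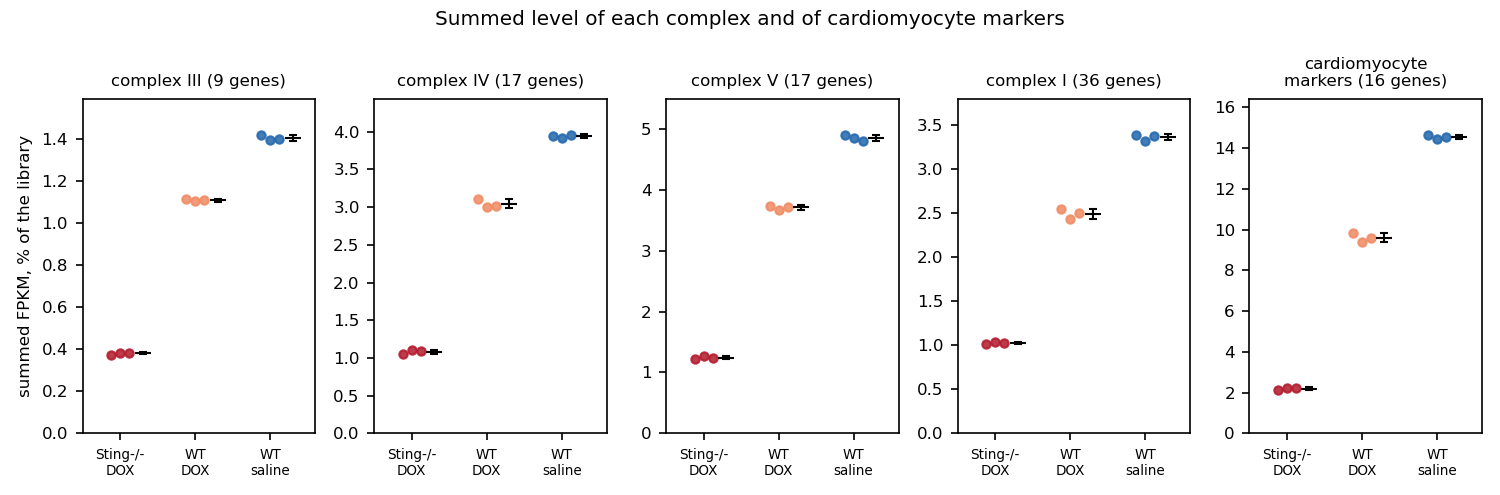
Summed FPKM of the subunits of complexes III, IV, V and I and of 16 cardiomyocyte markers, as a percentage of all FPKM of the library, for 3 Sting-/- DOX, 3 WT DOX and 3 WT saline libraries (points; the bar is the mean and the error bar the SD, each panel with its own scale from 0). In each panel the Sting-/- DOX libraries are lowest, the WT DOX libraries lie between and the groups do not overlap.

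Of the 44 members, 43 passed the filter on low values. In Sting-/- DOX against WT DOX, 39 were lower and 3 higher, and 1 was not called, where 29.7% of all genes tested were called lower and 54.1% higher. In WT DOX against WT saline, 37 were lower, 2 higher and 4 not called, where 21.5% of all genes tested were lower and 45.3% higher. In Sting-/- DOX against WT saline, 39 were lower and 4 higher, beside 25.9% lower and 63% higher over all genes. The median log2 fold change of the members was -1.60 in Sting-/- DOX against WT DOX, where that of all genes was 0.25, and -0.33 in WT DOX against WT saline, where that of all genes was 0.13. Both comparisons use the WT DOX libraries, so they are not independent. Among all called genes, those higher in Sting-/- DOX against WT DOX made up 64.6% on the deposited scale, 48.9% after median-ratio scaling and 51.4% after quantile normalization, and those higher in WT DOX against WT saline 67.8%, 41.0% and 39.2%.

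The fall of most members held under median-ratio scaling and quantile normalization but not relative to cardiomyocyte markers, where 35 were higher and 6 lower in Sting-/- DOX against WT DOX. Relative to those markers, 97.9% of all called genes were higher in the same comparison. In that comparison there were 41 lower and 2 higher under median-ratio scaling and 37 lower and 5 higher under quantile normalization. Of all called genes, 48.9% and 51.4% were higher under these scalings. Median-ratio scaling, which moves the median of all genes to -0.013, put the members at a median of -1.89 in Sting-/- DOX against WT DOX, and quantile normalization at -1.46. In WT DOX against WT saline these scalings gave -0.58 and -0.31. Measured from the all-gene median, the members stood at -1.84, -1.88 and -1.48 in the first comparison under the deposited scale, median-ratio scaling and quantile normalization. The same differences were -0.45, -0.49 and -0.21 in WT DOX against WT saline.

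**Figure D2:**
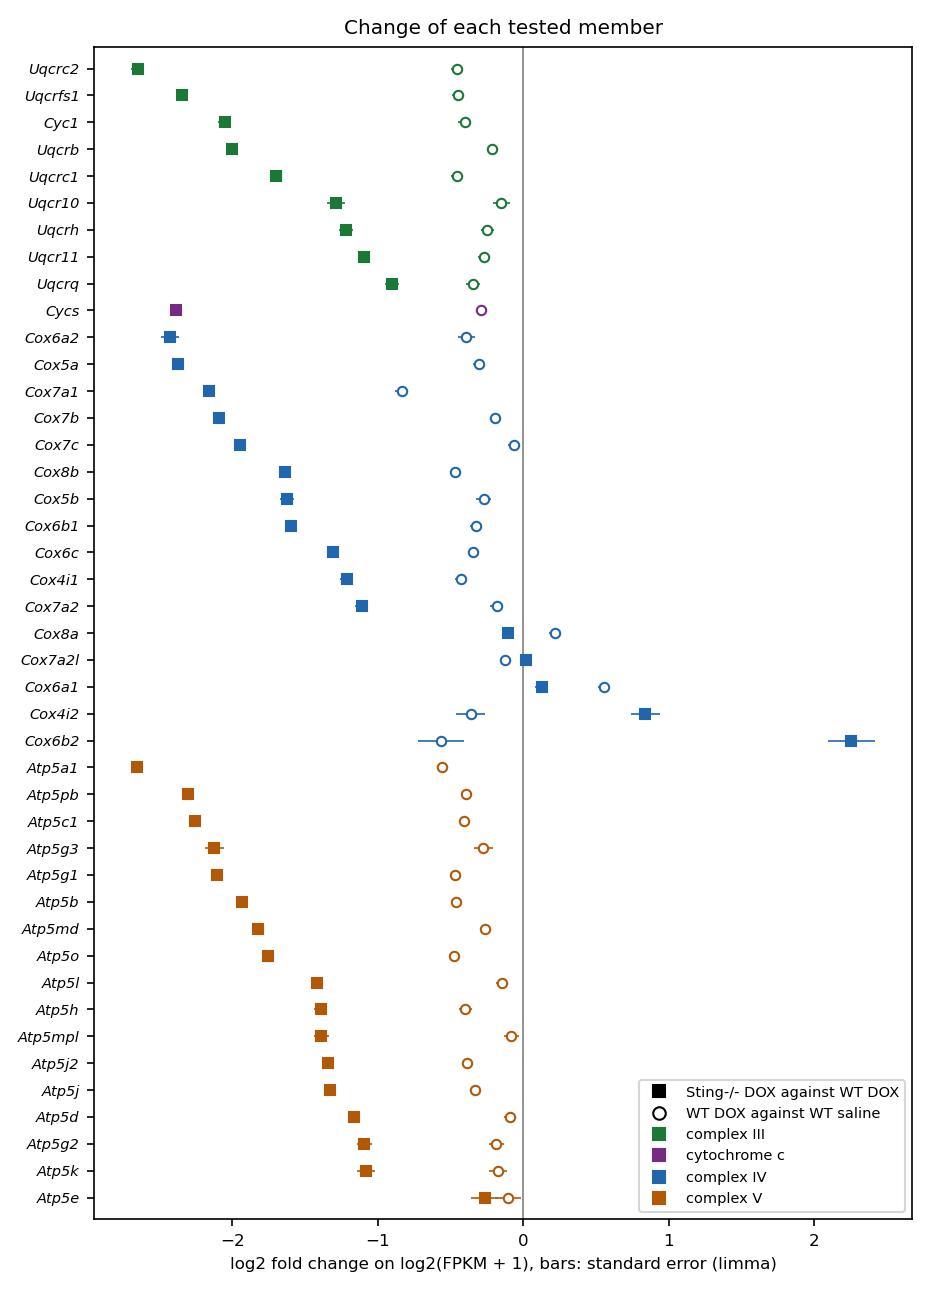
Log2 fold change on log2(FPKM + 1) of each of the 43 tested members, with its standard error from limma, in Sting-/- DOX against WT DOX (filled squares) and WT DOX against WT saline (open circles), coloured by complex and sorted within it. In Sting-/- DOX against WT DOX the members spread from -2.65 for Atp5a1 to 2.26 for Cox6b2, while in WT DOX against WT saline they lie between -0.84 for Cox7a1 and 0.56 for Cox6a1.

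All 9 complex III genes fell in Sting-/- DOX against WT DOX, with a median log2 fold change of -1.70, and all 9 fell in WT DOX against WT saline, with a median of -0.35. Of all genes tested, 29.7% were lower in the first comparison and 21.5% in the second. The core protein Uqcrc2 fell the most. It had 89.5, 79.8 and 83.2 FPKM in the Sting-/- DOX libraries, 523, 541 and 537 in WT DOX and 750.5, 735 and 712 in WT saline. The groups did not overlap, and the Sting-/- DOX mean was 15.8% of the WT DOX mean (log2 fold change -2.65, SE 0.043, limma adjusted p = 1.23e-13). Its partner core protein Uqcrc1 had 187, 199 and 202 FPKM in the Sting-/- DOX libraries, 654, 615 and 653 in WT DOX and 894, 849 and 896 in WT saline. That is a smaller difference, -1.70 (SE 0.04, limma adjusted p = 2.46e-12), although both fell alike in WT DOX against WT saline (-0.46 for Uqcrc2 and -0.46 for Uqcrc1).

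The subunits that carry the electron fell too. Uqcrfs1, the Rieske iron-sulfur protein, had 85.9, 94.9 and 87.7 FPKM in the Sting-/- DOX libraries, 457, 458 and 458 in WT DOX and 630.4, 639.6 and 603 in WT saline. Cyc1, cytochrome c1, which hands the electron to cytochrome c, had 128, 145 and 135 FPKM in the Sting-/- DOX libraries, 579, 556 and 569.5 in WT DOX and 763, 743 and 749.6 in WT saline. Their log2 fold changes were -2.34 and -2.05 in Sting-/- DOX against WT DOX (limma adjusted p = 2.11e-13 and 7.73e-13), and -0.45 and -0.40 in WT DOX against WT saline, all called.

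The small supernumerary subunits of complex III fell less than the core proteins in Sting-/- DOX against WT DOX. Uqcrb was the exception among them, with 341 ± 9.66 FPKM in Sting-/- DOX, 1368 ± 17.6 in WT DOX and 1592 ± 18.0 in WT saline (SD, n = 3 each) and a log2 fold change of -2.00 in Sting-/- DOX against WT DOX. Uqcrh, the hinge protein beside cytochrome c1, averaged 338 ± 19.3 FPKM in Sting-/- DOX, 789 ± 25.3 in WT DOX and 937 ± 36.3 in WT saline. Uqcr10, Uqcr11 and Uqcrq, all small membrane subunits, had log2 fold changes of -1.29, -1.10 and -0.90 in that comparison. Uqcrq showed the smallest fall of the complex, with 148, 166 and 159.9 FPKM in the Sting-/- DOX libraries, 305, 285 and 298 in WT DOX and 391, 359.6 and 379 in WT saline. The call of Uqcr10 in WT DOX against WT saline (log2 fold change -0.15, limma adjusted p = 0.041) was lost when any 1 of the WT libraries was left out (limma adjusted p of 0.0626 to 0.107).

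Cytochrome c carries electrons between complexes III and IV and, once outside the mitochondrion, can start programmed cell death. Cycs had 89.8, 85.4 and 83.3 FPKM in the Sting-/- DOX libraries, 465, 446 and 454 in WT DOX and 548, 576 and 545 in WT saline. The groups did not overlap. Its Sting-/- DOX mean was 18.9% of the WT DOX mean (log2 fold change -2.39, SE 0.038, limma adjusted p = 1.23e-13), and the WT DOX mean was 81.8% of the WT saline mean (log2 fold change -0.29, limma adjusted p = 3.26e-05). Hccs, the enzyme that attaches haem to cytochrome c, averaged 9.61 ± 0.506 FPKM in Sting-/- DOX, 26.1 ± 0.599 in WT DOX and 30.3 ± 1.26 in WT saline, and its log2 fold changes of -1.35 and -0.21 were also called.

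Complex IV was the complex with members in both directions. Of its 16 tested genes, 12 fell, 3 rose and 1 was not called in Sting-/- DOX against WT DOX, and 13 fell, 2 rose and 1 was not called in WT DOX against WT saline. Over all genes tested, 29.7% were lower and 54.1% higher in the first comparison, and 21.5% and 45.3% in the second. The complex IV genes that rose were all isoforms of a subunit that has a second gene. Among the subunits with a single gene, Cox5a, which contacts the catalytic core, fell the most. It had 191, 206 and 196 FPKM in Sting-/- DOX, against 1069, 981 and 1041 in WT DOX and 1309, 1265 and 1246 in WT saline. The log2 fold change was -2.38 in Sting-/- DOX against WT DOX (limma adjusted p = 2.13e-13) and -0.31 in WT DOX against WT saline.

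Cox5b, the zinc-binding subunit, averaged 336 ± 13.0 FPKM in Sting-/- DOX, 1039 ± 82.6 in WT DOX and 1251 ± 17.4 in WT saline (SD, n = 3 each; log2 fold change -1.62 in Sting-/- DOX against WT DOX). Cox6c was the most abundant member in Sting-/- DOX, at 770.4 ± 33.1 FPKM, against 1912 ± 27.6 in WT DOX and 2433 ± 55.4 in WT saline, where it was 5th. Cox7c was low in Sting-/- DOX and similar in both WT groups. It had 527, 578 and 544 FPKM in the Sting-/- DOX libraries, 2190.0, 2085 and 2103 in WT DOX and 2171, 2259 and 2244 in WT saline. The WT DOX and WT saline libraries overlapped (log2 fold change -0.066, limma adjusted p = 0.152), with a value of -0.32 under median-ratio scaling and 0.15 under quantile normalization, both called. All Sting-/- DOX libraries stood far below both groups, with a log2 fold change of -1.95 against WT DOX (limma adjusted p = 5.38e-13).

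Subunits 6a, 7a and 8 have a muscle isoform, encoded by Cox6a2, Cox7a1 and Cox8b in the mouse, and a ubiquitous isoform, encoded by Cox6a1, Cox7a2 and Cox8a. The muscle isoforms fell in both comparisons, while the ubiquitous isoforms fell less or were higher. Cox6a2 was the second most abundant member in WT saline and the first in WT DOX. It had 477, 516 and 466 FPKM in the Sting-/- DOX libraries, 2866, 2429 and 2589.9 in WT DOX and 3503, 3251 and 3574 in WT saline. The Sting-/- DOX mean was 18.5% of the WT DOX mean (log2 fold change -2.43, SE 0.061, limma adjusted p = 3.72e-12).

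Its counterpart Cox6a1 went the other way. It had 343, 371 and 372 FPKM in the Sting-/- DOX libraries, 343, 314 and 337 in WT DOX and 221, 229 and 225 in WT saline. WT DOX stood above WT saline (log2 fold change 0.56, SE 0.043, limma adjusted p = 3.34e-07), the largest rise of any member in that comparison on the deposited scale. The lowest Sting-/- DOX library and the highest WT DOX library nearly met, and Sting-/- DOX against WT DOX gave only 0.13 (limma adjusted p = 0.0167), and this turned to -0.17 under median-ratio scaling and was 0.44 under quantile normalization, both called (limma adjusted p = 0.00424 and 1.36e-06). The call was lost without WT DOX library 2 or Sting-/- DOX library 2 or 3, where the value was 0.090 to 0.11. In Sting-/- DOX, Cox6a1 stood at 1.61 times its level in WT saline, while Cox6a2 stood at 14.1% of its own level there. Genotype and treatment both differ between these groups.

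Cox7a1 showed the largest fall of any member in WT DOX against WT saline. It had 302, 331 and 339 FPKM in the Sting-/- DOX libraries, 1469.7, 1456 and 1429 in WT DOX and 2622, 2643 and 2511 in WT saline. The WT DOX mean was 56.0% of the WT saline mean (log2 fold change -0.84, SE 0.043, limma adjusted p = 7.25e-09), and the Sting-/- DOX mean was 22.3% of the WT DOX mean (-2.16, limma adjusted p = 5.38e-13). Cox7a2 had 182, 196 and 200.3 FPKM in Sting-/- DOX, against 434, 408 and 409 in WT DOX and 484, 455 and 484 in WT saline. It also fell, with log2 fold changes of -1.11 in Sting-/- DOX against WT DOX and -0.18 in WT DOX against WT saline.

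Cox7a2l, a relative of these that binds complexes III and IV together into supercomplexes, differed little between the DOX groups on the deposited scale. It had 225, 223 and 232 FPKM in the Sting-/- DOX libraries, 231, 221 and 219 in WT DOX and 245, 249.8 and 237 in WT saline. Sting-/- DOX and WT DOX overlapped (log2 fold change 0.02, SE 0.035, limma adjusted p = 0.607), and it was the 1 tested member not called in this comparison. With other scalings it was called in either direction, at -0.27 under median-ratio scaling, 0.27 under quantile normalization and 0.086 under TPM scaling (limma adjusted p = 2.13e-05, 3.55e-05 and 0.0358). In WT DOX against WT saline it was lower (log2 fold change -0.12, limma adjusted p = 0.00843).

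Cox8b had 499.9, 549 and 529 FPKM in the Sting-/- DOX libraries, 1662, 1669 and 1586 in WT DOX and 2284, 2250.1 and 2271 in WT saline. Its log2 fold change was -1.64 in Sting-/- DOX against WT DOX (limma adjusted p = 1.9e-12) and -0.47 in WT DOX against WT saline (limma adjusted p = 4.49e-07). Cox8a had 445, 470.4 and 455 FPKM in Sting-/- DOX, against 502, 468 and 504 in WT DOX and 407, 436 and 421 in WT saline. Its log2 fold change was 0.22 in WT DOX against WT saline (limma adjusted p = 0.000458), but -0.031 under median-ratio scaling, and -0.10 in Sting-/- DOX against WT DOX (limma adjusted p = 0.0305), but 0.18 under quantile normalization. Sting-/- DOX and WT DOX overlapped for Cox8a, and the call was lost without any 1 of Sting-/- DOX library 1 or 3 or WT DOX library 1 or 3.

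**Figure D3:**
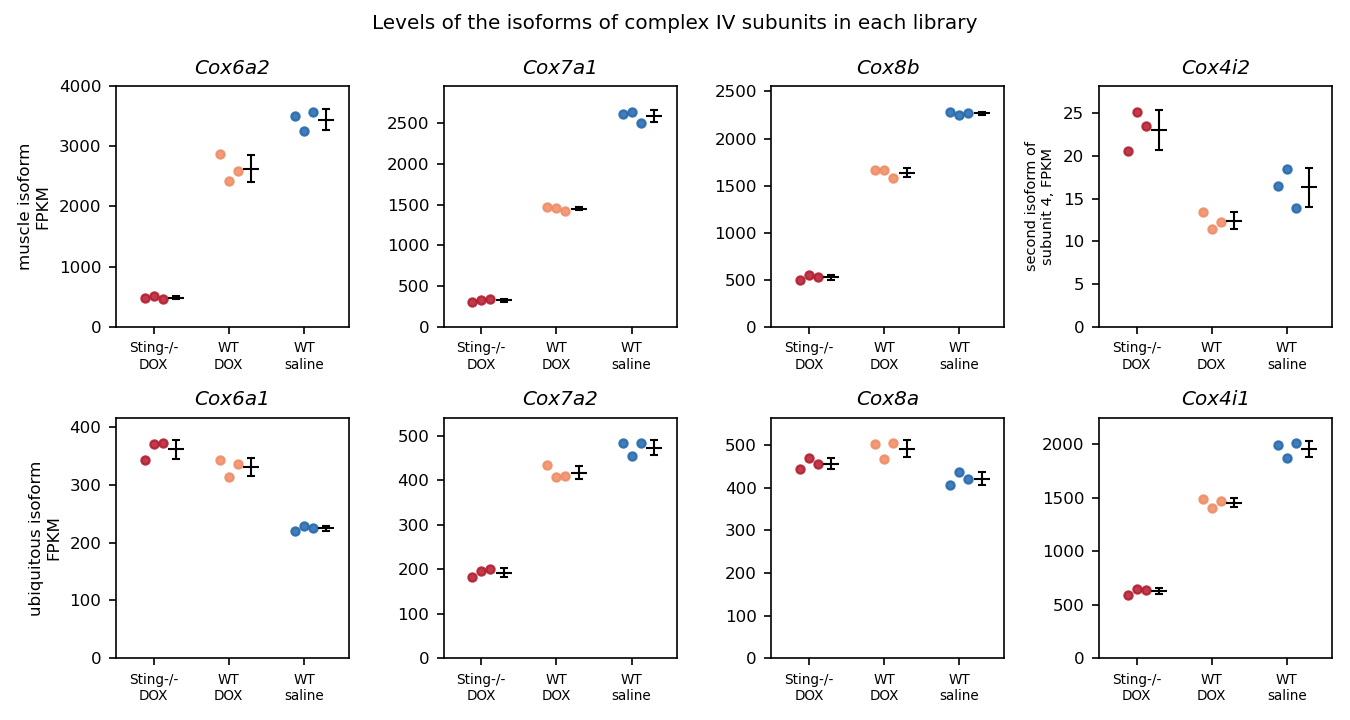
FPKM of the muscle isoforms Cox6a2, Cox7a1 and Cox8b (upper row) and of the ubiquitous isoforms Cox6a1, Cox7a2 and Cox8a (lower row), with Cox4i2 above Cox4i1 at the right, in the 3 libraries of Sting-/- DOX, WT DOX and WT saline (points; mean and SD beside them; axes from 0). The muscle isoforms are lowest in Sting-/- DOX and highest in WT saline, whereas Cox6a1 is lowest in WT saline and, by its mean, highest in Sting-/- DOX.

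The share of the muscle isoform in the summed FPKM of its pair is a value within 1 library, which multiplying all genes of a library by 1 factor does not change. For subunit 6a it was 58.2, 58.2 and 55.6% in the Sting-/- DOX libraries, 89.3, 88.5 and 88.5% in WT DOX and 94.1, 93.4 and 94.1% in WT saline. For subunit 7a it was 62.4, 62.8 and 62.9% in Sting-/- DOX, 77.2, 78.1 and 77.7% in WT DOX and 84.4, 85.3 and 83.9% in WT saline. For subunit 8 it was 52.9, 53.9 and 53.8% in Sting-/- DOX, 76.8, 78.1 and 75.9% in WT DOX and 84.9, 83.8 and 84.4% in WT saline. In all 3 subunits the 3 groups were apart, with Sting-/- DOX lowest and WT saline highest. An exact permutation test over the 1680 arrangements of 9 libraries into 3 groups gave p = 0.00357 for each of these subunits, the smallest it allows, and 0.00476 after adjustment over the 4 isoform pairs. The pairs are among members chosen with earlier results of these data known, so these p-values are not independent of that choice. Between any 2 groups of 3 the smallest exact p is 0.1, so single pairs of groups cannot pass a threshold of 0.05.

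The shift differed in size between the subunits. For subunit 6a the share differed by -31.4 percentage points in Sting-/- DOX against WT DOX and by -5.07 in WT DOX against WT saline. The differences were -23.4 and -7.40 points for subunit 8, and -15.0 and -6.85 points for subunit 7a, in the same comparisons. The size for subunit 7a depends on the genes counted. With Cox7a2l added to the pair, Cox7a1 averaged 43.5% in Sting-/- DOX, 69.4% in WT DOX and 78.3% in WT saline. Cardiomyocyte markers, which were lower in the same groups, stood at 21.9% of WT DOX in Sting-/- DOX and at 67.4% of WT saline in WT DOX, and their part in the isoform shift was not tested. Skeletal muscle and brown fat also express these muscle isoforms. The 10 listed skeletal muscle markers summed to 389 to 429 FPKM in Sting-/- DOX, 1155 to 1291 in WT DOX and 2223 to 2491 in WT saline, mostly from Ckm and Acta1, which the heart also expresses. Their defining myosins were near 0 in every library, with at most 0.29 FPKM for Myh1, 0.09 for Myh2 and 0.04 for Myh4. Of 5 tested skeletal muscle markers, 2 were lower in Sting-/- DOX against WT DOX and 3 higher, among the higher ones Mylpf with 8.10 ± 1.56 FPKM in Sting-/- DOX, 0.967 ± 0.616 in WT DOX and 0.867 ± 0.107 in WT saline. The 8 brown fat markers summed to 4661 to 5013 FPKM in Sting-/- DOX, 926 to 1061 in WT DOX and 1097 to 1199 in WT saline, nearly all of it Fabp4, which endothelial cells also express, with 4825 ± 177 FPKM in Sting-/- DOX, 962 ± 71.4 in WT DOX and 1110.0 ± 51.2 in WT saline. Of 5 tested brown fat markers, 2 were higher and 2 lower in Sting-/- DOX against WT DOX, while Ucp1 and Elovl3, which define these cells, reached at most 0.60 and 0.07 FPKM in any library. Among all genes tested, 54.1% were higher and 29.7% lower in that comparison. The part of either cell type in the isoform shift was not tested.

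**Figure D4:**
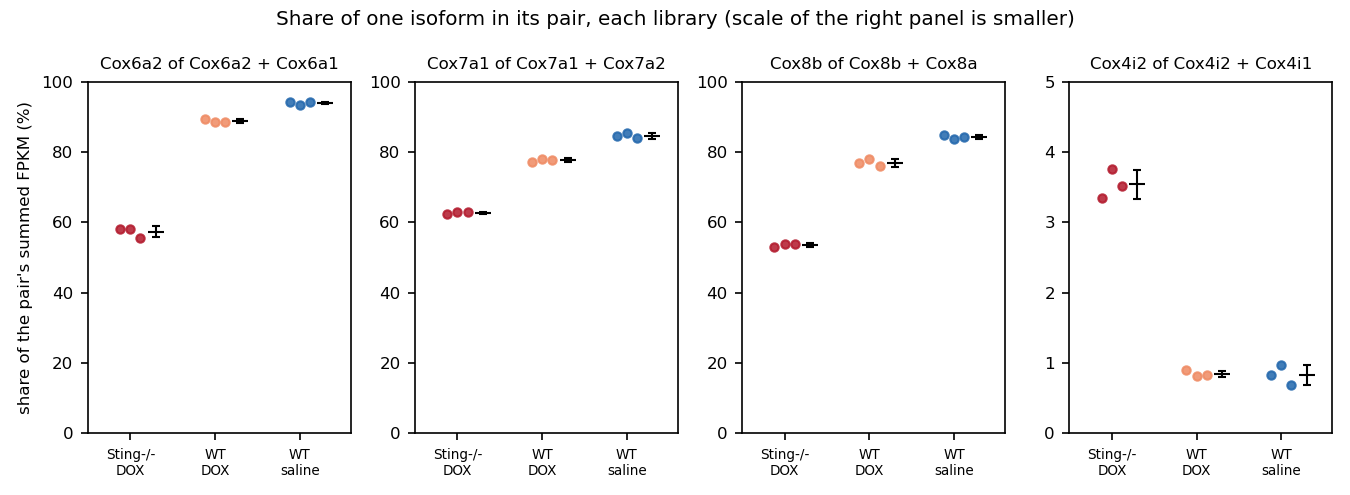
Share of Cox6a2, Cox7a1, Cox8b and Cox4i2 in the summed FPKM of its isoform pair (percent, axes from 0) in the 3 libraries of Sting-/- DOX, WT DOX and WT saline (points; mean and SD beside them). The muscle isoforms hold the smallest share in Sting-/- DOX, and Cox4i2 holds 3.35 to 3.76% there, against 0.808 to 0.898% in WT DOX and 0.689 to 0.978% in WT saline.

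The promoters of the subunit 7a and 8 pairs and of Cox6a1 are shown because the paired genes make the same subunit and their shares shifted, together with that of Cycs for its fall. Cox6a2 is not among those shown. Each is the stretch of 250 bases before the gene's start, on the gene's strand, from the RefSeq promoter table of GRCm38.p6. Capitals mark matches to the letters given after the sequences, and a sequence without capitals holds none of them.
Cox7a1 (chr7:30183921-30184170, plus strand): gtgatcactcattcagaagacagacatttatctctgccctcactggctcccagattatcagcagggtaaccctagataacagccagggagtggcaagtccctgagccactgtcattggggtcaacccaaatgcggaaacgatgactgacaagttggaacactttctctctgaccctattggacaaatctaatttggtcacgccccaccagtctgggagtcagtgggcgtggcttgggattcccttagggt
Cox7a2 (chr9:79759854-79760103, minus strand): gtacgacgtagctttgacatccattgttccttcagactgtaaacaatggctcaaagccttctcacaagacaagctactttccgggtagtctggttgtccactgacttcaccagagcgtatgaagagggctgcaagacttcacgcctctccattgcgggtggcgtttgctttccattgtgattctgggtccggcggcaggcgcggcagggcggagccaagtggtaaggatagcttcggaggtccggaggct
Cox8b (chr7:140900447-140900696, minus strand): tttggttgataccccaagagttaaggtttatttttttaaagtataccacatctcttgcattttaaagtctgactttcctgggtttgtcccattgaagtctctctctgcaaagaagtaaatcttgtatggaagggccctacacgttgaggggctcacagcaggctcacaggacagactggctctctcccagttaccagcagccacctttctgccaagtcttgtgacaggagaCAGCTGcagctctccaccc
Cox8a (chr19:7217617-7217866, minus strand): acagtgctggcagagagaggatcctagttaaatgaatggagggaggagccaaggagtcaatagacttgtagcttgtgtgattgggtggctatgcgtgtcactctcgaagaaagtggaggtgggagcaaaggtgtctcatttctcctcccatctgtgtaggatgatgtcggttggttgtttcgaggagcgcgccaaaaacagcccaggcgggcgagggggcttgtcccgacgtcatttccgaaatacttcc
Cox6a1 (chr5:115348959-115349208, minus strand): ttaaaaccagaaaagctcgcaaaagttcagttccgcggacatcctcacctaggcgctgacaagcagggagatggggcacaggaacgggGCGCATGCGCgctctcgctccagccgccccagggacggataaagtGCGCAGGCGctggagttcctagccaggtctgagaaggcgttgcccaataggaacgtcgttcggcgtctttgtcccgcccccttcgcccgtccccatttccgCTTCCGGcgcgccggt
Cycs (chr6:50566570-50566819, minus strand): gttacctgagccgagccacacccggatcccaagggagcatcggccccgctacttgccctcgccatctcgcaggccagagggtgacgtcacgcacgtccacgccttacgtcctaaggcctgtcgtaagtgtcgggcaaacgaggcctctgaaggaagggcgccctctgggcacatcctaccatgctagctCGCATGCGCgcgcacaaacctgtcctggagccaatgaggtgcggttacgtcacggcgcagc
Within both pairs shown the muscle isoform has fewer CpG dinucleotides in its window. Cox7a1 had 4 and Cox8b 1, against 14 in Cox7a2, 11 in Cox8a, 26 in Cox6a1 and 23 in Cycs. The capitals in Cox6a1 are letters for NRF1, GCGCANGCG, in 3 matches of which 2 overlap, from 162 to 153 and from 117 to 109 bases before the start, and for GABPA, CCGGAAG, on the other strand from 16 to 10 bases before it. Cycs holds 1 NRF1 match from 61 to 53 bases before its start, on the other strand. In Cox8b the capitals mark CAGCTG, an E-box of muscle factors, from 19 to 14 bases before the start.

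NRF1 and GABPA are transcription factors known to switch on respiratory chain genes. Both strands were searched, and 34 of the 44 members had a promoter window. NRF1 letters were in 7 of these (20.6%), against 10.2% of all 13326 genes with a window, and GABPA letters in 8 (23.5%), against 12.8%. The letters of SP1, GGGCGGGG, were in 4 members (11.8%, against 29.9% of all genes), and CAGCTG in 2 (5.88%, against 14.9%). The oestrogen-related receptor letters AAGGTCA were in 2 members (5.88%, against 3.77%), those of YY1, AANATGGCG, in 1 (2.94%, against 2.0%) and those of MEF2, TAAAAATA, in none (1.56% of all genes). The letters were settled after some counts had been seen, so these shares are a description only.

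Subunits 4, 6b and 7b have a second isoform that the heart expresses little. Cox4i1, the main subunit 4 and the site where ATP can slow the enzyme, had 594, 645 and 642 FPKM in the Sting-/- DOX libraries, 1488, 1407 and 1473 in WT DOX and 1992, 1871 and 2009 in WT saline. It fell in Sting-/- DOX against WT DOX (log2 fold change -1.21, limma adjusted p = 6.96e-11). Cox4i2, the isoform known from lung and from low oxygen, had 20.6, 25.2 and 23.4 FPKM in the Sting-/- DOX libraries, 13.5, 11.5 and 12.3 in WT DOX and 16.5, 18.5 and 13.9 in WT saline. Sting-/- DOX lay above WT DOX (log2 fold change 0.84, SE 0.099, limma adjusted p = 5.99e-06), while against WT saline its 0.48 became -0.041 under median-ratio scaling.

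Its share of the subunit 4 pair averaged 3.54 ± 0.206% in Sting-/- DOX, against 0.845 ± 0.0467% in WT DOX and 0.830 ± 0.145% in WT saline (SD, n = 3 each; exact permutation test over 3 groups, p = 0.0321, adjusted p = 0.0321). The WT groups overlapped. Cox4i2 is known from pericytes and smooth muscle as well. Of 11 markers of those cells, 9 were higher and 1 lower in Sting-/- DOX against WT DOX, where 54.1% of all genes tested were higher and 29.7% lower. Their summed level was 1000.2 to 1068 FPKM in Sting-/- DOX, against 297 to 311 in WT DOX and 386 to 435 in WT saline. The part of these cells in the rise of Cox4i2 was not tested.

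Cox6b2, known as the testis isoform of subunit 6b, showed the largest rise of any member in Sting-/- DOX against WT DOX. It had 13.2, 8.15 and 12.1 FPKM in the Sting-/- DOX libraries, 1.46, 1.69 and 1.37 in WT DOX and 3.47, 2.65 and 2.12 in WT saline. The groups did not overlap, and the Sting-/- DOX mean was 7.42 times the WT DOX mean (log2 fold change 2.26, SE 0.16, limma adjusted p = 5.39e-08). At these low levels the 1 FPKM added before the log makes the log2 fold change smaller than that ratio. It still made up only 1.87 ± 0.400% of the FPKM of Cox6b1 and Cox6b2, against 0.0854 ± 0.00887% in WT DOX and 0.124 ± 0.0319% in WT saline. Cox6b1, the ubiquitous isoform on the side of cytochrome c, had 619.7, 569 and 561 FPKM in Sting-/- DOX, against 1767, 1771 and 1748 in WT DOX and 2178, 2247 and 2202 in WT saline. It fell in Sting-/- DOX against WT DOX (log2 fold change -1.60, limma adjusted p = 2.65e-12). Cox7b had 165 ± 7.66 FPKM in Sting-/- DOX, 704 ± 9.46 in WT DOX and 804 ± 12.1 in WT saline (log2 fold change -2.09 in Sting-/- DOX against WT DOX), and Cox7b2, the testis form, stayed at 0.47 FPKM or below in every library and was not tested.

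All 17 complex V genes fell in Sting-/- DOX against WT DOX, with a median log2 fold change of -1.42, and 14 fell in WT DOX against WT saline, with a median of -0.33 over the 17. The shares of all genes tested that were lower were 29.7% in the first comparison and 21.5% in the second. The catalytic F1 head is built from 5 kinds of subunit, and they did not move alike. Atp5a1, the alpha subunit, showed the largest fall of any member in Sting-/- DOX against WT DOX. It had 229, 229 and 221 FPKM in the Sting-/- DOX libraries, 1469, 1399 and 1420.2 in WT DOX and 2146, 2081 and 2102 in WT saline. The Sting-/- DOX mean was 15.8% of the WT DOX mean (log2 fold change -2.65, SE 0.032, limma adjusted p = 2.76e-14), and the WT DOX mean was 67.8% of the WT saline mean (-0.56, limma adjusted p = 2.01e-08).

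The catalytic beta subunit, Atp5b, was the most abundant member in WT saline. It had 680.1, 680.0 and 691 FPKM in the Sting-/- DOX libraries, 2596, 2586 and 2657 in WT DOX and 3722, 3536 and 3566 in WT saline. Alpha and beta alternate in the head, and Atp5b kept 26.2% of its WT DOX level in Sting-/- DOX (log2 fold change -1.93, limma adjusted p = 1.13e-13). Atp5c1, the gamma subunit that forms the rotor shaft, had 233, 237 and 246 FPKM in Sting-/- DOX, against 1142, 1159 and 1137 in WT DOX and 1556, 1484 and 1512 in WT saline. It fell in Sting-/- DOX against WT DOX (log2 fold change -2.26, limma adjusted p = 6.01e-14).

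Of the head, the small delta and epsilon subunits at the foot of the shaft fell least. Atp5d had 407 ± 12.6 FPKM in Sting-/- DOX, 914 ± 45.8 in WT DOX and 973 ± 11.9 in WT saline (log2 fold change -1.16 in Sting-/- DOX against WT DOX). Atp5e had 387, 498 and 395 FPKM in the Sting-/- DOX libraries, 566, 465 and 502 in WT DOX and 582, 523 and 539.7 in WT saline. Sting-/- DOX and WT DOX overlapped, with a log2 fold change of -0.27 (SE 0.093, limma adjusted p = 0.0186) that became 0.029 under quantile normalization and lost its call without Sting-/- DOX library 1 or 3 or WT DOX library 1 (limma adjusted p of 0.076 to 0.0836). Atp5e had the widest spread between libraries of the 41 members at 50 FPKM or more, with a coefficient of variation of 14.5% in Sting-/- DOX, 9.96% in WT DOX and 5.58% in WT saline. The medians over these 41 members were 4.41%, 2.83% and 2.62%.

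Neither Atp5d nor Atp5e was called in WT DOX against WT saline (log2 fold changes -0.091 and -0.10, limma adjusted p = 0.0624 and 0.335). Both were called lower under median-ratio scaling (-0.34 and -0.36). The same held for Atp5mpl, a small proteolipid of the membrane sector, with -0.083 (limma adjusted p = 0.172) and -0.33 under median-ratio scaling. In Sting-/- DOX against WT DOX, Atp5mpl fell (log2 fold change -1.39, limma adjusted p = 1.12e-10).

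The rotor ring of complex V is made of identical mature c subunits encoded by 3 genes, which differ in their import peptides. Atp5g1 had 438, 462 and 458 FPKM in Sting-/- DOX, against 2034, 1868 and 1965 in WT DOX and 2738, 2695 and 2687 in WT saline. Atp5g3 had 256 ± 20.6 FPKM in Sting-/- DOX, 1117 ± 79.0 in WT DOX and 1351 ± 70.2 in WT saline (SD, n = 3 each), and Atp5g2 had 216 ± 9.27 FPKM in Sting-/- DOX, 462 ± 33.4 in WT DOX and 525 ± 12.3 in WT saline. All fell in Sting-/- DOX against WT DOX, with log2 fold changes of -2.11 for Atp5g1, -2.12 for Atp5g3 and -1.09 for Atp5g2. Of their summed FPKM, Atp5g2 made up 23.3 ± 0.823% in Sting-/- DOX, against 13.1 ± 0.525% in WT DOX and 11.5 ± 0.0126% in WT saline. Atp5g1 made up 49.0 ± 0.705%, 55.3 ± 0.632% and 59.1 ± 0.888% of it in those groups. These shares were worked out after the values had been seen and were not tested.

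The peripheral stalk holds the head still against the rotor. Atp5pb, its b subunit, had 114, 121 and 123 FPKM in Sting-/- DOX, against 597, 585 and 604 in WT DOX and 779, 787 and 780.1 in WT saline. Its log2 fold change of -2.31 in Sting-/- DOX against WT DOX was the second largest fall of the complex (limma adjusted p = 1.1e-13). Atp5o, which joins the stalk to the head, had a log2 fold change of -1.76, Atp5h of -1.39 and Atp5j of -1.33 in the same comparison, all called. Of the other small membrane subunits, Atp5md fell the most (-1.82), followed by Atp5l (-1.42), Atp5j2 (-1.34) and Atp5k (-1.08). Atp5l and Atp5k, which take part in pairing ATP synthases, were also lower in WT DOX against WT saline (log2 fold changes -0.15 and -0.17). The call of Atp5l was lost under quantile normalization (-0.063, limma adjusted p = 0.194), and that of Atp5k without WT saline library 1 or 2 or WT DOX library 3 (limma adjusted p of 0.066 to 0.118).

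Atpif1 encodes the inhibitory factor that stops ATP synthase from running backwards and does not carry an Atp5 symbol. It had 164, 151 and 159.6 FPKM in the Sting-/- DOX libraries, 199, 196 and 199.6 in WT DOX and 179, 183 and 174 in WT saline. Sting-/- DOX lay below WT DOX (log2 fold change -0.32, limma adjusted p = 6.14e-06), a smaller difference than for any complex V gene but Atp5e. In WT DOX against WT saline its 0.15 (limma adjusted p = 0.00389) became -0.099 under median-ratio scaling.

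Within the 43 tested members, those with longer coding sequences and higher levels fell more. Spearman's rho between the log2 fold change and the coding length was -0.38 in Sting-/- DOX against WT DOX and -0.51 in WT DOX against WT saline, where over 12271 genes it was 0.077 and -0.10. Between the log2 fold change and the WT saline level, rho was -0.51 and -0.40 over the members, and -0.36 and -0.24 over all 12485 genes. The members share the same libraries and the WT saline level enters WT DOX against WT saline itself, so these are descriptions with no test. Differences in fold change between members were not tested either. Coding lengths run from 156 bases for Atp5e to 1659 for Atp5a1.

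**Figure D5:**
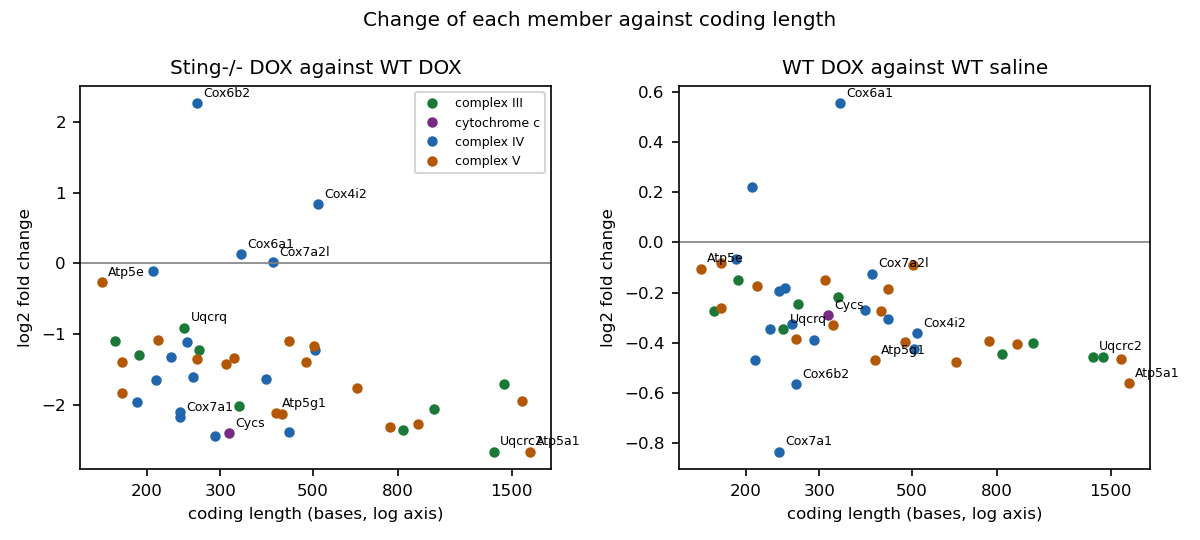
Log2 fold change of each of the 43 tested members against its coding length in bases (log axis, GENCODE annotation), in Sting-/- DOX against WT DOX (left) and WT DOX against WT saline (right), coloured by complex with a few genes named. At the left Atp5a1 and Uqcrc2 are lowest at -2.65 among the longest genes, and at the right Cox7a1 stands apart from genes of its length at -0.84.

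The order of levels among the members changed with these differences. Cox6a2 ranked first among the members in WT DOX and 11th in Sting-/- DOX, Cox7a1 12th and 23rd, and Atp5a1 13th and 30th. Cox8a ranked 34th in WT DOX and 13th in Sting-/- DOX, Cox6a1 39th and 18th, and Atp5e 33rd and 15th. Cox6c, Atp5b and Atp5j2 were the 3 most abundant members in Sting-/- DOX, and Cox6a2, Atp5b and Cox7c in WT DOX.

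Some proteins sit on complex IV without a Cox name. Ndufa4, first assigned to complex I and later found in complex IV, had 526, 497 and 535 FPKM in the Sting-/- DOX libraries, 1826, 1883 and 1868 in WT DOX and 2314, 2319 and 2323 in WT saline. It fell in Sting-/- DOX against WT DOX (log2 fold change -1.84, limma adjusted p = 2.67e-13). Ndufa4l2, its relative known to rise in low oxygen, had 70.0, 76.2 and 71.4 FPKM in Sting-/- DOX, against 32.6, 30.5 and 31.4 in WT DOX and 20.9, 19.2 and 23.0 in WT saline. It rose in Sting-/- DOX against WT DOX and in WT DOX against WT saline (log2 fold changes 1.18 and 0.56, limma adjusted p = 2.85e-09 and 6.57e-06), with no change of direction under the other scalings.

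AA467197, the third gene of this small family, also called Nmes1, can take the place of Ndufa4 in inflammation, as known from its human counterpart. It had 13.6, 15.2 and 13.8 FPKM in the Sting-/- DOX libraries, 53.5, 62.6 and 54.7 in WT DOX and 1.04, 0.440 and 1.19 in WT saline. The WT DOX mean was 64.0 times the WT saline mean (log2 fold change 4.96, limma adjusted p = 2.53e-11), and Sting-/- DOX was lower than WT DOX (log2 fold change -1.93, limma adjusted p = 3e-08). With a WT saline level near 1 FPKM, the 1 FPKM added before the log makes the 4.96 smaller than the ratio of 64.0. Of the FPKM of these 3 genes, Ndufa4 held 85.7 ± 1.04% in Sting-/- DOX, 95.5 ± 0.155% in WT DOX and 99.1 ± 0.0952% in WT saline. The rest was mostly Ndufa4l2 in Sting-/- DOX (11.5, 12.9 and 11.5% by library) and AA467197 in WT DOX (2.92 ± 0.213%), a comparison made after the values had been seen.

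Most genes that assemble the complexes fell as well in Sting-/- DOX against WT DOX. Of 24 tested complex IV assembly factors, 20 were lower and 1 higher in Sting-/- DOX against WT DOX, with a median of -0.76, and 8 were lower and 4 higher in WT DOX against WT saline, with a median of -0.087. The shares of all genes tested were 29.7% lower and 54.1% higher in the first comparison, and 21.5% and 45.3% in the second. In WT DOX against WT saline, median-ratio scaling and quantile normalization gave 15 of the factors lower and 2 higher, with medians of -0.32 and -0.26. Of all called genes, 41.0% and 39.2% were higher there under these scalings. Taco1, which starts translation of a core subunit of complex IV, had the largest fall, with 3.21, 2.73 and 4.14 FPKM in Sting-/- DOX, against 27.6, 29.2 and 29.5 in WT DOX and 35.1, 38.3 and 38.4 in WT saline. Lrpprc, which keeps mitochondrial messenger RNAs stable, had 8.80 ± 1.03 FPKM in Sting-/- DOX, 46.7 ± 0.715 in WT DOX and 68.1 ± 3.96 in WT saline. Cox19, a copper-handling factor, was highest in WT DOX, with 32.2, 34.2 and 33.6 FPKM in Sting-/- DOX, 71.0, 71.8 and 70.5 in WT DOX and 44.9, 42.4 and 43.9 in WT saline. Cox16 was the 1 gene called higher in Sting-/- DOX against WT DOX (0.23), which became -0.054 under median-ratio scaling.

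Of 6 complex III assembly factors, 5 were lower and 1 higher in Sting-/- DOX against WT DOX, with a median of -0.80. Uqcc1, needed to make cytochrome b, fell the most, with 13.4 ± 0.533 FPKM in Sting-/- DOX, 60.9 ± 0.614 in WT DOX and 82.5 ± 2.82 in WT saline. Uqcc3 was the gene called higher (0.27), which became -0.021 under median-ratio scaling. Of 6 complex V assembly factors, 5 were lower and 1 was not called, with a median of -1.09, and Atpaf1, the chaperone of the beta subunit, had 11.3 ± 0.170 FPKM in Sting-/- DOX, 49.8 ± 0.946 in WT DOX and 71.7 ± 1.72 in WT saline. For both lists the share of all genes tested in Sting-/- DOX against WT DOX was 29.7% lower and 54.1% higher.

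The other nuclear-encoded complexes moved with these. All 36 measured complex I genes fell in Sting-/- DOX against WT DOX, with a median of -1.39, and 34 fell in WT DOX against WT saline, with a median of -0.37. All 4 complex II genes fell in both, with medians of -2.23 and -0.44. As a share of the WT DOX sum, Sting-/- DOX held 39.2% of complex I and 22.4% of complex II, on either side of the 32.7% of the members. Proteins of mitochondrial import, porins and cristae fell in 16 of 16 cases in Sting-/- DOX against WT DOX (median -1.18), and in WT DOX against WT saline 8 fell and 4 rose (median -0.15). Median-ratio scaling and quantile normalization gave 12 lower and 1 higher there, with medians of -0.40 and -0.30. Under these scalings 41.0% and 39.2% of all called genes were higher in WT DOX against WT saline. Of all genes tested on the deposited scale, 29.7% were lower in Sting-/- DOX against WT DOX. In WT DOX against WT saline 21.5% were lower and 45.3% higher.

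Among 12 regulators of respiratory chain genes, 9 were lower and 3 higher in Sting-/- DOX against WT DOX, and 7 were lower and 3 higher in WT DOX against WT saline. All genes tested gave 29.7% lower and 54.1% higher in the first comparison, and 21.5% and 45.3% in the second. Ppargc1a, the coactivator that drives mitochondrial biogenesis, had 1.31 ± 0.0929 FPKM in Sting-/- DOX, 16.1 ± 0.698 in WT DOX and 25.5 ± 0.186 in WT saline (SD, n = 3 each). Perm1, a muscle protein that works with it, had 6.53 ± 0.411 FPKM in Sting-/- DOX, 60.9 ± 2.15 in WT DOX and 94.9 ± 1.10 in WT saline. Both fell in Sting-/- DOX against WT DOX (log2 fold changes -2.89 and -3.04, limma adjusted p = 3.96e-13 and 1.14e-13). Those that rose were Nrf1 and Yy1, which encode the factors of those names, and Gabpb1, which encodes the partner of GABPA.

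Gabpb1 had 22.4, 20.8 and 19.4 FPKM in Sting-/- DOX, 10.2, 9.99 and 10.1 in WT DOX and 8.46, 7.55 and 8.05 in WT saline (log2 fold change 0.98 in Sting-/- DOX against WT DOX, limma adjusted p = 1.75e-08). Nrf1 had 8.61, 9.86 and 8.59 FPKM in Sting-/- DOX, 5.76, 6.04 and 6.23 in WT DOX and 4.11, 4.12 and 4.34 in WT saline (0.51, limma adjusted p = 1.27e-05). Under median-ratio scaling 2 of the 12 were called higher in that comparison, and 1 in WT DOX against WT saline. Of all called genes, 48.9% and 41.0% were then higher in these comparisons. No list here was tested as a set.

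Markers of several cell types also differed between the groups, some in the direction of the members and some in the other. All 16 cardiomyocyte markers were lower in Sting-/- DOX against WT DOX, with a median of -2.05, a larger fall than the members' -1.60, and in WT DOX against WT saline 12 were lower and 2 higher, with a median of -0.58. All 10 endothelial markers and 9 of 10 fibroblast markers were higher in Sting-/- DOX against WT DOX, with medians of 1.90 and 1.80. Endothelial markers summed to 1338 to 1442 FPKM in Sting-/- DOX, 319 to 325 in WT DOX and 327 to 337 in WT saline. Fibroblast markers summed to 7841 to 8329.9 FPKM in Sting-/- DOX, 1244 to 1284 in WT DOX and 597 to 608 in WT saline. In the same comparison 7 of 10 macrophage markers were higher and 3 lower, all 5 erythroid markers were higher, and 5 of 6 neutrophil markers were lower. Over all genes tested, 54.1% were higher and 29.7% lower in Sting-/- DOX against WT DOX. The shares were 45.3% and 21.5% in WT DOX against WT saline. Under median-ratio scaling 5 macrophage markers were higher and 3 lower in Sting-/- DOX against WT DOX, where 48.9% of all called genes were higher. None of the markers in these lists was at 0 in every library.

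Set against the cardiomyocyte markers, the members stood higher in Sting-/- DOX than in WT DOX, and higher in WT DOX than in WT saline. Their summed FPKM was 124 ± 1.71% of the markers' sum in Sting-/- DOX, 82.7 ± 0.841% in WT DOX and 70.8 ± 0.282% in WT saline (SD, n = 3 each). When each library was scaled by the geometric mean of those 16 markers, a choice made after the data had been seen, 35 members were called higher and 6 lower in Sting-/- DOX against WT DOX, and 28 higher and 2 lower in WT DOX against WT saline. Of all called genes, 97.9% and 95.8% were then higher in these comparisons. The median of all genes was 2.24 and 0.46, above the members' 0.67 and 0.16. The part of these cells in the members' fall was not tested.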

How the data were processed

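Heart RNA was sequenced in 9 libraries. Groups and replicate numbers came from the sample titles. For each library the authors deposited FPKM values of the same 16873 gene IDs. RSEM 1.2.12, HISAT2 2.0.4 and Bowtie2 2.2.5 appear in the submitters' processing notes, beside the build GRCm39, with no role given. FPKM is relative to the library total, so abundant genes can shift the others, and no read counts were given, so the depth is unknown. From the lowest values of 221 low genes, the depth relative to WT saline was about 0.733 in Sting-/- DOX and 1.2 in WT DOX. Whether counting used strand is not given in the sources used here.

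Symbols came from a RefSeq table of GRCm38.p6, used for names only (16825 IDs matched, 48 did not). The name rule matched 59 genes there, of which 14 are pseudogenes and 45 code for protein, and 44 of the 45 were in the files. Cox8c was not analysed here. Reads shared with pseudogene copies may have been divided between genes, so levels of small subunits are uncertain to that extent.

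The test was limma 3.58.1 on log2(FPKM + 1) (R 4.3.3; trended variance prior, all 9 libraries, 6 residual degrees of freedom, two-sided) for the 12485 genes whose mean reached 1 FPKM, with Benjamini-Hochberg adjustment over all of them and a threshold of 0.05. The fit was tested on simulated data. This scale understates changes of low genes. Isoform shares were tested with an exact permutation test over 3 groups, adjusted over 4 pairs. A planned test of summed complex levels was left out, because the members were chosen with results known. Members and lists were chosen with earlier results of these data known, and the p-values of the isoform shares carry the same limit. Named genes were the isoform pairs, the electron carriers and core subunits, the F1 subunits, Atpif1, the largest and smallest changes and those against the majority, with up to 4 genes of each other list. Coding lengths are the longest in GENCODE vM21 per gene. Other software was scipy 1.17.1, numpy 2.4.6, matplotlib 3.10.9 and pandas 2.3.3 under Python 3.11.15. Alternatives covered the pseudocount, the filter, the scaling, the samples fitted, a replicate block, sample weights, the variance prior and each library left out.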

Additional observations from a re-analysis of the deposited data

How the results depend on the processing

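Counts of members called stayed within 1.5 times of the reported ones in 111 cases and moved further in 9. Under median-ratio scaling, 1 member was higher in WT DOX against WT saline and 2 in Sting-/- DOX against WT saline, and under quantile normalization 5 were higher in Sting-/- DOX against WT DOX. The shares of all called genes that were higher were 41.0%, 50.5% and 51.4% in that order. Cardiomyocyte marker scaling, added after the data were seen, gave 28 higher and 2 lower in WT DOX against WT saline, 35 and 6 in Sting-/- DOX against WT DOX, and 35 and 3 in Sting-/- DOX against WT saline. With it, 95.8%, 97.9% and 98.3% of all called genes were higher in these comparisons, in the same order. Same-numbered libraries of different groups correlated with r between -0.032 and 0.10 over 9 pairs, and other pairs between -0.066 and 0.035. Of the 9 libraries, 3 correlated best with their own number. These values cannot show whether libraries with the same number share a batch. With the replicate number as a block, 39 members were lower and 3 higher in Sting-/- DOX against WT DOX and 37 lower and 2 higher in WT DOX against WT saline, the same counts as without it.

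Summed complex levels changed in log2 ratio with the scaling, for complexes III, IV and V in turn. With median-ratio scaling they were -1.90, -1.86 and -1.94 in Sting-/- DOX against WT DOX, -0.56, -0.59 and -0.61 in WT DOX against WT saline, and -2.47, -2.45 and -2.55 in Sting-/- DOX against WT saline. As a share of all FPKM they were -1.54, -1.50 and -1.58 in Sting-/- DOX against WT DOX, and for complex III -0.34 in WT DOX against WT saline and -1.88 in Sting-/- DOX against WT saline. Of the isoform shares, that of Cox4i2 changed sign in WT DOX against WT saline, where it was 0.016 percentage points, and lay between -0.055 and 0.090 with 1 library left out. Genes that changed sign did so only with a scaling. Median-ratio scaling gave Cox4i2 -0.041 and Cox8a -0.43 in Sting-/- DOX against WT saline, Cox6a1 -0.17 and Cox7a2l -0.27 in Sting-/- DOX against WT DOX, and Cox8a -0.031 in WT DOX against WT saline. Quantile normalization gave Cox8a 0.18 and Atp5e 0.029 in Sting-/- DOX against WT DOX, Cox7a2l 0.042 in Sting-/- DOX against WT saline, and Cox7c 0.15 in WT DOX against WT saline. The causes were not tested. Leaving out 1 library cost 23 calls of single members and added 2, while 1136 values kept direction and call.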
